A study of Mus musculus with 5 samples.

Results

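Somatostatin (Sst), the related peptide cortistatin (Cort) and the receptors Sstr1, Sstr2, Sstr3 and Sstr4 were followed across single nuclei of the mouse central amygdala (CeA). The 6 genes were found by symbol among the 22532 genes of the count tables. The data are 5 single-nucleus RNA-seq libraries, 3 of fed and 2 of fasted mice. A library pooled the CeA of a male and a female brain. Fed replicates 1 and 2 and both fasted replicates came from mice of 8 weeks labelled C57BL6, and the study's methods give C57BL/6NRj for wild-type animals. Fed replicate 3 came from Htr2a-Cre mice of 12 weeks, a BAC line backcrossed to C57BL/6N that had received a Cre-dependent mCherry virus, so that age, genotype and virus cannot be told apart in it. The labels give 20 hours of fasting for fasted replicate 1 and 21 hours for fasted replicate 2.

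Somatostatin is cut from a longer precursor, stored in dense-core vesicles and released from GABAergic neurons. Its receptors couple to Gi/o proteins, which lower adenylyl cyclase activity, open inwardly rectifying potassium channels and close presynaptic calcium channels, so the peptide quiets its target cells. In the CeA, Sst marks a population of neurons of the lateral division (CeL), and in cortex and basolateral amygdala it marks interneurons, some of which also make neuropeptide Y and nitric oxide. The study also describes Sst-positive cells in the medial division of the CeA, with a cluster there marked by Tac1 and Sst.

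Both peptides end in a ring that carries the receptor-binding core, and the coding sequence of that end is shown because it is what relates Cort to Sst. The last 14 codons before each stop codon are given from the GRCm39 genome, with the 12 bases of the core in capitals. The Sst codons are at chr16:23708482-23708523 on the minus strand and the Cort codons at chr4:149209724-149209765 on the minus strand, both at the end of the coding sequence.
Sst: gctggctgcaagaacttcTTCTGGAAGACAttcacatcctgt
Cort: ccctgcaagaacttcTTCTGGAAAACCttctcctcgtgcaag
Aligned on the core, 13 codons could be compared, of which 11 encoded the same residue and 7 were the same codon. Of these 39 bases, 31 (79.5%) were identical, and 10 of the 12 core bases were. The genes themselves lie apart, Sst at chr16:23707321-23711733 and Cort at chr4:149209491-149211266.

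The receptors are single genes on separate chromosomes. In GRCm39, Sstr1 is at chr12:58258494-58262824, Sstr2 at chr11:113510145-113516862, Sstr3 at chr15:78421208-78428886 and Sstr4 at chr2:148236836-148243025. The promoter of Sst is a textbook example of a cAMP-responsive one, so the window of each gene from RefSeq, 250 bases before to 50 bases after the start, was searched for the palindrome TGACGTCA and for its short form TGACG on both strands. Windows were matched for Sst, Cort, Sstr2, Sstr3 and Sstr4. The palindrome was in the windows of Sst and Sstr2 and in 1.79% of all 32851 windows, and its short form, which each palindrome also contains, was found in those of Cort and Sstr3 (1 of its 2 windows) as well and in 20.8% of all windows. The 100 bases before the start of both genes follow, placed on GRCm39 by exact match at chr16:23709595-23709694 (minus strand) and chr11:113510053-113510152 (plus strand), with the palindrome in capitals.
Sst promoter: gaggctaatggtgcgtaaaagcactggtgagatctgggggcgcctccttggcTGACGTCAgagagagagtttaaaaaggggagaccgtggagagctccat
Sstr2 promoter: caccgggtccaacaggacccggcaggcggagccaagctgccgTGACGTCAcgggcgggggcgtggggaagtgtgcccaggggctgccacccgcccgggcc
The motif started 48 bases before the RefSeq start of Sst and 58 bases before that of Sstr2. These starts differ from the gene bounds given above. The Sst window lies within the bounds of its gene, chr16:23707321-23711733, and the Sstr2 window runs past the lower bound of its gene, 113510145. A match describes these letters and is not a measured binding site.

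Nuclei with 500 to 8000 genes and under 0.8% of their unique molecular identifiers (UMIs, counted molecules) from mitochondrial genes were kept. They numbered 7161 of 23839 barcodes, with 1130 to 1734 in a library and a median of 6608 to 16367 UMIs each. By their Gad1 and Gad2 UMIs, 5065 nuclei (70.7%) were inhibitory. Inhibitory nuclei were assigned to classes by their UMIs of a single marker gene (gates for Prkcd, Calcrl, Dnah5, Tac1, Vdr, Foxp2, Rarb and Nkx2-1), and 2325 that passed no gate are called ungated. None of the 6 genes was used in a gate. Excitatory nuclei numbered 76 and glia 887. Checked against other markers, the Prkcd, Dnah5 and Vdr gates led all classes in each of their 3 or 4 markers, whereas the Tac1 gate led the inhibitory classes in 2 of its 5 (not in Shisa6, Sphkap or Pcdh15) and the Rarb gate in 3 of its 5 (not in Drd1 or Rgs9), so the classes are named by their gate. Of the kept barcodes, 3 occurred in more than 1 library. Levels are given as CPM, the gene's UMIs per 1000000 UMIs of the class in a library, and since nuclear reads from introns were counted, CPM are compared only within a gene.

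Sst was measured in every library. Inhibitory nuclei held 2864 of its 3247 UMIs (88.2%) and 85.3% of all UMIs, so its pooled level there, 37.2 CPM, was close to the 36.0 CPM over all nuclei. The 1133 nuclei that were neither inhibitory, excitatory nor glial held 280 Sst UMIs, a level of 37.9 CPM. Among the gated classes it was uneven. The Dnah5 gate, where the peptide genes Nts and Tac2 were highest, held 701 UMIs in 500 nuclei, and the ungated nuclei held 1246 in 2325. In the Dnah5 class Sst stood at 50.6, 87.1 and 56.8 CPM in fed replicates 1 to 3 and at 81.8 and 111 CPM in fasted replicates 1 and 2, a mean of 77.5 ± 24.4 CPM (SD, n = 5). All 5 values were above each of the 5 values of the Rarb, Prkcd, Calcrl, Foxp2, excitatory and glial classes. The Tac1 gate, which selects neurons with the substance P precursor, gave 94.1 ± 60.4 CPM (SD, n = 5), with 42.1 to 193 CPM from as few as 7 nuclei in a library.

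The Nkx2-1 gate, a transcription factor of interneurons from the medial ganglionic eminence, gave 91.9 ± 72.8 CPM (SD, n = 5). Its libraries ranged from 8.00 CPM in fed replicate 2 to 199 CPM in fed replicate 1, which rested on 6 nuclei. The Vdr gate gave 66.1 ± 66.4 CPM (SD, n = 5), from 0 UMIs in fed replicate 1, where 3 UMIs would have been 21.3 CPM, to 166 CPM in fed replicate 2. That highest value rested on 5 nuclei, of which 1 held 13 of the 14 UMIs. These 4 classes overlapped in their levels.

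**Figure D1:**
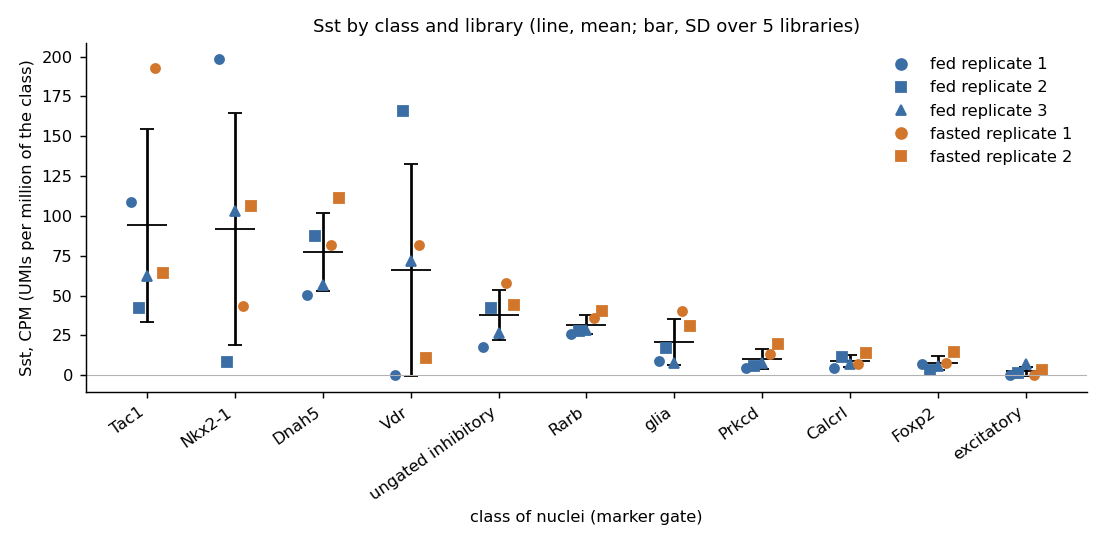
Sst level (CPM, vertical axis) in each class of nuclei (horizontal axis), 1 point per library, blue for fed and orange for fasted, with the mean and SD over 5 libraries in black. The Tac1, Nkx2-1, Dnah5 and Vdr classes have means between 66.1 and 94.1 CPM, and the Prkcd, Calcrl, Foxp2 and excitatory classes have means at or below 10.4 CPM.

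The remaining classes followed in the order ungated (37.6 ± 15.8 CPM), Rarb (31.7 ± 6.10 CPM), glia (20.9 ± 14.2 CPM), Prkcd (10.4 ± 6.28 CPM), Calcrl (8.62 ± 3.78 CPM), Foxp2 (7.53 ± 4.40 CPM) and excitatory nuclei (2.40 ± 2.94 CPM), each with SD and n = 5. Excitatory nuclei held 5 Sst UMIs in all, and 0 in fed replicate 1 and fasted replicate 1. There 3 UMIs would have been 39.5 and 20.0 CPM. Over the whole order, each of the 10 pairs of neighbours overlapped in their libraries, whereas 21 of all 55 pairs did not overlap. Glia, which are not known to make Sst, thus stood above the Prkcd, Calcrl, Foxp2 and excitatory classes in their mean, and the source of the glial Sst UMIs was not tested.

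Each class was tested against the mean of the other classes on summed UMIs with the library as a block (edgeR quasi-likelihood test, Benjamini-Hochberg adjustment over 10821 genes). Of the 6 genes only Sst passed the filter on low counts, and it was past an adjusted p of 0.05 in 9 of 11 classes. It was higher in the Dnah5 class by 1.97 ± 0.20 (log2, SE; adjusted p = 9.02e-12), where 22.4% of all genes were past the threshold. The Nkx2-1 class was higher by 1.87 ± 0.32 (adjusted p = 3.77e-06, 23.9% of all genes) and the Tac1 class by 1.68 ± 0.38 (adjusted p = 0.00188, 7.17% of all genes).

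The ungated class was higher by 0.72 ± 0.20 (adjusted p = 0.0118, 7.52% of all genes) and the Rarb class by 0.60 ± 0.22 (adjusted p = 0.0442, 21.1% of all genes). Sst was lower in excitatory nuclei by a log2 difference of -3.25 ± 0.75 (adjusted p = 0.000665, 22.2% of all genes), in the Foxp2 class by -1.60 ± 0.40 (adjusted p = 0.00213, 14.8%), in the Calcrl class by -1.39 ± 0.39 (adjusted p = 0.00654, 18.9%) and in the Prkcd class by -1.19 ± 0.34 (adjusted p = 0.00391, 34.9%). The excitatory value rests on 5 Sst UMIs. The Vdr class (0.89 ± 0.48, adjusted p = 0.297, 8.9% of all genes) and glia (-0.29 ± 0.33, adjusted p = 0.460, 59.6% of all genes) did not pass. The Rarb call was lost when any library other than fed replicate 2 was left out, and the ungated call without fed replicate 2 (adjusted p = 0.0682) or fasted replicate 1 (adjusted p = 0.0958). The Calcrl call was lost with gate thresholds 1 UMI higher (adjusted p = 0.0595) and without the nuclei past several gates (adjusted p = 0.0580).

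To set depth aside, nuclei were drawn down to 4000 UMIs each, which left out 144 of the inhibitory nuclei and 453 of the glia as too shallow. An Sst UMI was then present in 9.46 ± 2.57% of inhibitory nuclei (SD over 5 libraries) against 7.53 ± 2.52% of glia. Without thinning the shares were 18.8 ± 7.27% and 7.49 ± 4.62%, at median depths of 7445 to 18438 UMIs in inhibitory nuclei and 2597 to 4580.5 in glia. The thinned share was 27.2 ± 15.7% in the Tac1 class, 24.0 ± 4.80% in the Dnah5 class, 20.1 ± 10.1% in the Nkx2-1 class, 18.6 ± 17.4% in the Vdr class and 10.1 ± 3.02% in ungated nuclei. The Rarb (6.03 ± 2.25%), Prkcd (4.94 ± 3.16%), Foxp2 (3.43 ± 3.04%), Calcrl (2.17 ± 1.54%) and excitatory (0.80 ± 1.79%) classes lay below the glial share. Whether a single Sst UMI in a nucleus is expression was not tested. The Sst-positive nuclei described below include inhibitory nuclei of any class with 1 Sst UMI after thinning. The glial share is given as a comparison, and whether it measures a background common to all classes was not tested.

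Sst was unevenly spread among the nuclei that held it. Of all inhibitory nuclei, 4050 (80.0%) had no Sst UMI, 583 (11.5%) had 1, 389 (7.68%) had 2 to 9 and 43 (0.849%) had 10 or more, bounds set after the values were seen. Those 43 nuclei held 876 of the 2864 Sst UMIs (30.6%). In the Rarb class 11 such nuclei, present in each of the 5 libraries, held 61.0% of the class's Sst UMIs, and in the Nkx2-1 class 5 nuclei from 2 libraries held 65.5%. In the Dnah5 class 12 nuclei held 19.8% of the Sst UMIs, so there the transcript was carried mostly by nuclei with fewer than 10.

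The nuclei with 10 or more Sst UMIs also carried other genes in shares unlike the rest. Npy, the neuropeptide Y precursor, had a UMI in 24 of the 43 (55.8%) against 9.77% of nuclei with 2 to 9 Sst UMIs and 3.33% of those with none. Nos1, the neuronal nitric oxide synthase, was present in 44.2%, 17.0% and 16.0% of the same groups, and Lhx6, a transcription factor of interneurons from the medial ganglionic eminence, in 44.2%, 7.20% and 4.32%. Chodl, known in cortex from Sst neurons with long axons, was present in 30.2%, 6.43% and 10.3%. The nuclei with 2 to 9 Sst UMIs had instead the highest share for Ebf1, a transcription factor, at 68.9% against 51.2% in those with 10 or more and 32.0% in those with none. Prodynorphin (Pdyn) followed that second pattern, with 36.5%, 27.9% and 8.49%. These shares are from unthinned nuclei and are a description with no test. Median depth over libraries was 5125 to 21616 UMIs in the top group and 8282 to 20483 in that with 2 to 9. The 43 nuclei were 1, 10 and 7 from fed replicates 1 to 3 and 3 and 22 from fasted replicates 1 and 2. In the same order, Npy was present in 1, 3, 6, 3 and 11 of them, and Ebf1 in 0, 5, 3, 0 and 14.

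**Figure D2:**
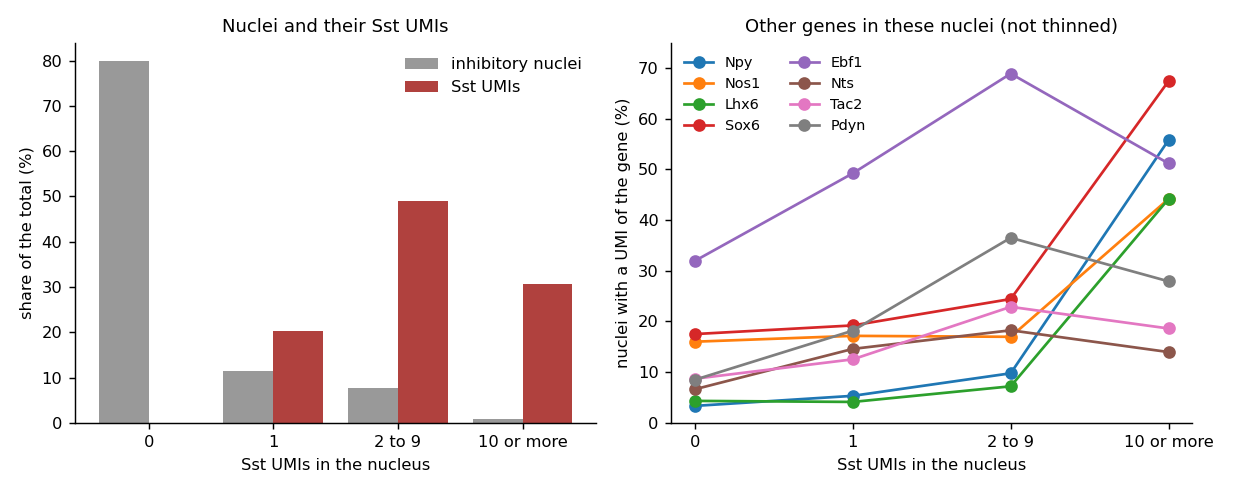
Left, share (%) of inhibitory nuclei (grey) and of their Sst UMIs (red) by the number of Sst UMIs in the nucleus. Right, share (%) of the same nuclei with at least 1 UMI of 8 other genes. Npy, Nos1, Lhx6 and Sox6 are highest at 10 or more Sst UMIs, and Ebf1, Nts, Tac2 and Pdyn at 2 to 9.

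Sst-positive inhibitory nuclei were then compared with Sst-negative ones within each library, after thinning to 4000 UMIs (480 nuclei with an Sst UMI and 4441 without, Sst left out of the test, library as a block). Of 10872 genes, 550 (5.06%) were past the threshold, 286 higher and 264 lower in Sst-positive nuclei. Npy was higher by 4.40 ± 0.26 (log2, SE; edgeR adjusted p = 1.74e-19), from 2.98 ± 2.60 CPM in Sst-negative to 65.5 ± 40.7 CPM in Sst-positive nuclei (SD, n = 5 libraries). Nos1 was higher by 2.20 ± 0.19 (adjusted p = 2.58e-13) and Sox6, a transcription factor of the same interneurons, by 1.85 ± 0.11 (adjusted p = 7.19e-20). Before thinning, the 43 nuclei with 10 or more Sst UMIs held 304 Npy UMIs, against 118 in the 389 with 2 to 9 and 47 in the 583 with 1. Nos1 was present in 17.0% of nuclei with 2 to 9 Sst UMIs and 17.2% with 1, against 16.0% with none. The part of the 43 nuclei in these differences was not tested.

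Pdyn was higher by 1.94 ± 0.22 (adjusted p = 1.80e-09), at 46.9 ± 13.2 against 11.9 ± 1.33 CPM. The dopamine receptor Drd3 was higher by 2.01 ± 0.19 (adjusted p = 4.42e-12), and the transcription regulator Tox by 1.89 ± 0.09 (adjusted p = 2.06e-23). The channel gene Trpc5 was higher by 1.78 ± 0.09, from 185 ± 7.77 to 670 ± 204 CPM. Cpa6 (3.28 ± 0.41), Lypd6 (1.89 ± 0.27) and Bend7 (1.78 ± 0.20) completed the 10 largest increases on the log2 scale, and each of the 10 genes was higher in 5 of 5 libraries.

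The 10 largest decreases included the gate genes Foxp2 and Calcrl and Drd2, a listed marker of the Calcrl and Rarb gates. Foxp2, a transcription factor of the intercalated cells, was lower by a log2 difference of -2.24 ± 0.17 (edgeR adjusted p = 5.93e-15), at 34.6 ± 15.6 against 168 ± 82.7 CPM. Calcrl, part of the receptor for CGRP, was lower by -1.70 ± 0.27 and the dopamine receptor Drd2 by -1.59 ± 0.20. Megf11, Chst9, Adarb2, 6330411D24Rik, Slc6a11, Qrfpr and Six3 were lower by -2.08 to -1.52, each in 5 of 5 libraries. An Sst UMI was also present in 7.53% of thinned glia, and the part of such UMIs in these differences was not tested.

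**Figure D3:**
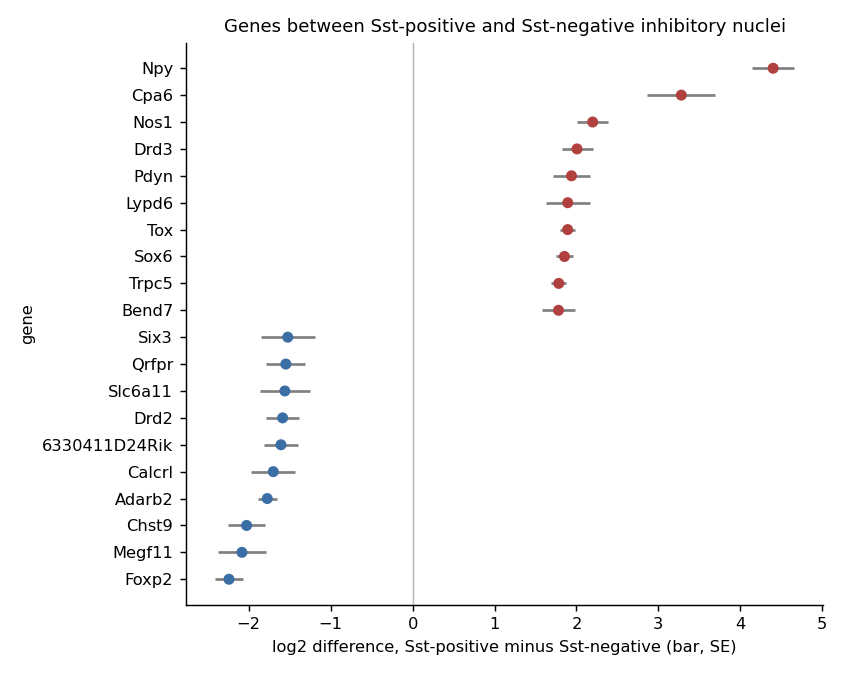
Log2 difference in level between Sst-positive and Sst-negative inhibitory nuclei (horizontal axis, bars are SE) for the 10 genes with the largest increase (red) and the 10 with the largest decrease (blue). Npy has the largest increase at 4.40 and Foxp2 the largest decrease at -2.24.

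By function, the list of peptide genes of CeA neurons had the largest median difference. Of 11 listed peptide genes, 8 were tested. Npy, Pdyn, Nts (1.27) and Tac2 (1.08) were higher and Penk, the proenkephalin gene, was lower (-0.95). The median log2 difference was 1.09 against 0.00 over all genes tested. Nts and Tac2 are listed markers of the Dnah5 gate, and the part of class make-up in their rise was not tested. In ungated nuclei 5 of the 11 were tested and 2 were higher. Npy is also in the interneuron list that follows. Of 12 listed genes of forebrain Sst interneurons, 10 were tested, Npy, Nos1, Lhx6 (1.71) and Sox6 were higher and Calb1, a calcium-binding protein, was lower (-0.82). Of 12 genes for peptide processing and dense-core vesicles, all tested, Pcsk2, a convertase that cuts prohormones, was higher (0.47) and Cadps2, which primes the vesicles, was lower (-0.46). Of the 5 Gi/o subunits Gnaz was higher (0.47), and of 3 tested inward rectifiers Kcnj6 was lower (-0.41). None of the 2 calcium channels, 7 arrestin, kinase and phosphatase genes or 7 adenylyl cyclases tested passed.

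Within the ungated nuclei alone, 229 Sst-positive and 1970 Sst-negative nuclei differed in 240 of 8909 genes (2.69%). Npy (4.33), Pdyn (2.18), Nos1 (2.01) and Sox6 (1.65) were again higher on the log2 scale (edgeR adjusted p = 6.84e-09, 0.000120, 3.02e-05 and 7.50e-07). Pdyn also met the rule for named genes there (20 CPM or more, same direction in 5 libraries), which Npy and Nos1 did not. Ano2, a calcium-activated chloride channel, was higher by 2.45 ± 0.20, from 48.1 ± 19.9 to 294 ± 152 CPM. Sema6d, a semaphorin, was higher by 1.80 ± 0.14, from 592 ± 48.6 to 2242 ± 963 CPM. Of 5 genes listed as markers of CeL Sst neurons, Ebf1, Cntn4, Sema6d, Trpc5 and Erbb4, all 5 were higher in Sst-positive ungated nuclei (0.71 to 1.80). In all inhibitory nuclei 4 were higher, with Erbb4 at 0.19 (edgeR adjusted p = 0.210). The study names Ebf1 as a further marker of its Il1rapl2 cluster, also expressed elsewhere. Since this list was chosen with earlier results of these data known, the rise of its genes is a description and no independent check. These genes are not particular to 1 class here, since Ebf1, Sema6d and Trpc5 had their highest class mean in the Dnah5 class (501, 1473 and 694 CPM), Erbb4 in the Foxp2 class (5284 CPM) and Cntn4 in excitatory nuclei (1614 CPM).

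By class rather than by nucleus, 10 of the 12 interneuron genes were higher in the Nkx2-1 class, the gate gene among them, where 23.9% of all genes passed, with a median log2 difference of 2.88 over the list against -0.04 over all genes tested. In the Dnah5 class 1 of the 12 was higher and 3 were lower (median -0.31 against 0.03, 22.4% of all genes passed), and in the Tac1 class 1 was higher and 1 lower (median -0.67 against -0.04, 7.17% of all genes). Of the peptide list, 5 of 9 tested were higher in the Dnah5 class (Tac2, Pdyn, Nts, Crh and Pnoc, by 1.31 to 4.16) and 1 of 9 in the Nkx2-1 class (Npy, 3.55), where Pdyn (-3.48) and Penk (-1.36) were lower. Over the 11 classes, the genes most like Sst in mean log2(CPM + 1) were Mpped1 (Pearson r = 0.918), Gpatch3 (0.866), Letm2 (0.863), Cd99l2 (0.862) and Gmppa (0.861), as a description over 11 classes that share their libraries.

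Cortistatin was rare, with 52 UMIs in all kept nuclei, 51 of them in inhibitory nuclei and 0 in 887 glia, a level below 0.720 CPM (3 UMIs). In inhibitory nuclei it stood at 0.53, 0.59 and 0.79 CPM in fed replicates 1 to 3 and at 0.50 and 0.70 CPM in fasted replicates 1 and 2, so that the 2 states overlapped. In the Nkx2-1 class 9 UMIs gave a pooled level of 5.40 CPM (95% Poisson interval 2.47 to 10.3), yet all 9 came from 1 nucleus of fed replicate 3. Cort was not in the fit of Sst-positive nuclei, being under its filter. In those nuclei 2 Cort UMIs were counted after thinning, and 11 in the Sst-negative ones.

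The receptors were likewise sparse. Sstr2, a receptor found widely in brain, had 336 UMIs, Sstr3, which is placed in neuronal cilia, had 150, Sstr1 had 68 and Sstr4 had 61. The fifth receptor gene, Sstr5, is not among the 6 genes described and had 127. In inhibitory nuclei Sstr2 stood at 5.16, 3.20 and 3.89 CPM in fed replicates 1 to 3 and at 3.28 and 3.50 CPM in fasted replicates 1 and 2, and Sstr3 at 1.98, 1.57, 1.52, 1.89 and 1.66 CPM in the same order. For Sstr1 these values were 0.66, 0.65, 0.74, 0.88 and 0.70 CPM, and for Sstr4 1.59, 0.33, 0.53, 0.25 and 0.55 CPM. None of the 4 receptors separated fed from fasted libraries.

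Sstr2 was counted in each of the 11 classes. Its pooled level was 8.14 CPM in excitatory nuclei (95% Poisson interval 4.45 to 13.7, 14 UMIs), 4.45 CPM in ungated (3.75 to 5.25, 143 UMIs), 4.10 CPM in Rarb (3.12 to 5.28, 59 UMIs) and 2.32 CPM in Dnah5 nuclei (1.40 to 3.63, 19 UMIs), against 1.92 CPM in glia (0.829 to 3.78, 8 UMIs). In excitatory nuclei it was 26.3, 8.13 and 0 CPM in fed replicates 1 to 3 and 13.4 and 8.42 CPM in fasted replicates 1 and 2, counts of 0 to 5 UMIs a library. Its share after thinning was 1.38% of inhibitory nuclei (68 of 4921, exact 95% interval 1.07 to 1.75%) and 0.691% of glia (3 of 434, 0.143 to 2.01%), which overlap.

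Sstr3 had its best-counted level in ungated nuclei, 2.70 ± 0.57 CPM (SD, n = 5, 81 UMIs), with 0.611 CPM in Dnah5 (95% Poisson interval 0.199 to 1.43) and 0.136 CPM in Prkcd nuclei (0.00345 to 0.758, 1 UMI). Sstr1 was also mostly ungated, with 38 of its 68 UMIs there (55.9%) and 1.19 ± 0.16 CPM (SD, n = 5). Its pooled level in the Nkx2-1 class was 3.00 CPM (lower 95% bound 0.974), from 5 UMIs in 3 libraries, of which the 16.6 CPM of fed replicate 1 was 1 UMI in 6 nuclei. In the Prkcd class 0 Sstr1 UMIs were counted in 445 nuclei, a level below 0.408 CPM (3 UMIs), and in glia 2 UMIs were counted. Sstr4 had 15 of its 61 UMIs in the Rarb class, in 5 of 5 libraries, and 10 in the Dnah5 class. The pooled levels of Sstr4 in these classes, 1.04 CPM (0.583 to 1.72) and 1.22 CPM (0.586 to 2.25), had overlapping intervals, as had that in glia, 0.960 CPM (0.261 to 2.46). Intervals cover counting error only.

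**Figure D4:**
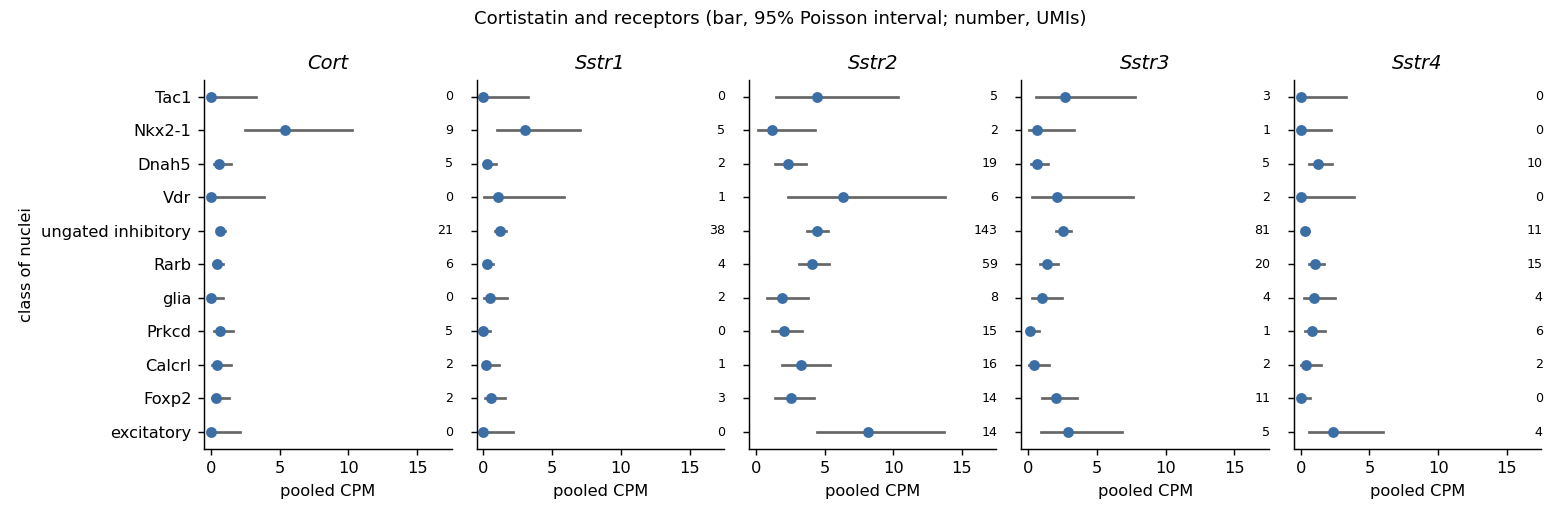
Pooled level (CPM, horizontal axis) of Cort and 4 receptors in each class of nuclei (vertical axis), with the 95% Poisson interval of the count as a bar and the number of UMIs at the right. Sstr2 reaches 8.14 CPM in excitatory nuclei from 14 UMIs, and the 5.40 CPM of Cort in the Nkx2-1 class is from 1 nucleus.

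None of these 5 genes entered the class fit. Without the filter on low counts, 8 of their 55 class comparisons were past the threshold, 7 of them higher (18229 genes tested, of which 4.14 to 43.9% passed by class). They included Sstr3 in ungated nuclei (1.37 ± 0.35, adjusted p = 0.00493, 6.66% of all genes in that fit), Sstr1 in ungated nuclei (1.85 ± 0.54, adjusted p = 0.0185) and Sstr2 in excitatory nuclei (1.51 ± 0.53, adjusted p = 0.0419, 13.7% of all genes). Sstr3 in the Prkcd class was the 1 lower (-2.62 ± 0.87, adjusted p = 0.0177, 21.7% of all genes). The others were Cort and Sstr1 in the Nkx2-1 class (14.3% of all genes) and Sstr4 in the Rarb (13.4%) and excitatory classes, on 15 UMIs or fewer each. Beside these shares, the 8 calls are not read as particular to these 5 genes. In Sst-positive nuclei Sstr2 was the only one of them tested, with 5.29 ± 2.95 against 3.62 ± 0.50 CPM (SD, n = 5) and a log2 difference of 0.44 ± 0.62 (adjusted p = 0.866), whose sign varied over the alternatives (-0.65 to 0.70). Sstr1, Sstr3 and Sstr4 had 1, 3 and 2 UMIs in them.

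The genes whose class pattern was most like that of a receptor are given as a description. For Sstr1 they were Bcl2l15, Rxfp2, Nr4a2, 6330411D24Rik and Gna14 (Pearson r from 0.935 to 0.960 over 11 classes), all highest in the Nkx2-1 class, where Sstr1 itself rests on those 5 UMIs. Those for Sstr2 were Ppp1r1a, Mmp17, Chst1, Plk5 and Kcng1 (0.891 to 0.909), all highest in excitatory nuclei. Those for Sstr3 were Clstn1, Grm2, Sgcd, Islr2 and Jdp2 (0.788 to 0.867) and those for Sstr4 Mcat, Pno1, Pet100, Mgst3 and Zcwpw1 (0.861 to 0.875), from 150 Sstr3 and 61 Sstr4 UMIs in all nuclei.

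Fasting raises the drive to eat, which CeA circuits act on, so fed and fasted libraries were compared class by class. Sst stood at 21.6, 34.4 and 27.7 CPM in inhibitory nuclei of fed replicates 1 to 3 and at 50.8 and 45.9 CPM in fasted replicates 1 and 2. Both fasted values were above the 3 fed ones, a log2 difference of 0.76 ± 0.19 (SE; unadjusted p = 0.00379, edgeR quasi-likelihood test across all genes). It did not pass the adjustment over 13605 genes (adjusted p = 0.364). There 0% of all genes passed, and 710 had an unadjusted p under 0.05. How many of all genes had both fasted values above the 3 fed ones was not counted.

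No other class passed either. The log2 difference of Sst was 0.56 ± 0.25 in the Dnah5 class (adjusted p = 0.851, 0.0101% of all genes passed), 0.47 ± 0.19 in the Rarb class (adjusted p = 1.00, 0.00911%), 1.38 ± 0.40 in the Prkcd class (adjusted p = 0.306, 0.0622%), 1.53 ± 0.55 in the Foxp2 class (adjusted p = 1.00, 0.0103%), 0.61 ± 0.54 in the Calcrl class (adjusted p = 1.00, 0.0929%) and 0.76 ± 0.30 in ungated nuclei (adjusted p = 0.884, 0% of genes). The Tac1, Vdr, Nkx2-1 and excitatory classes had too few nuclei in a library to enter. Whether the difference depended on the class was not shown by the interaction test (unadjusted p = 0.0730, adjusted p = 0.980, 0% of 12065 genes).

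The same direction was measured in glia and in barcodes that were left out. In glia Sst stood at 9.07, 17.0 and 7.38 CPM in fed replicates 1 to 3 and at 40.1 and 30.7 CPM in fasted replicates 1 and 2, a log2 difference of 1.56 ± 0.41 (adjusted p = 0.349, 0% of genes). In the 15171 barcodes that had 500 or more genes but exceeded the mitochondrial limit, it stood at 42.9, 58.0 and 27.7 CPM and at 87.1 and 93.4 CPM, 2.11-fold higher in the fasted mean. The fasted-to-fed ratio of the means was 1.74 in all inhibitory nuclei and 3.18 in glia. The fasted libraries also held 5986 and 5547 of these barcodes against 253 to 2479 in the fed ones. The cell types of these barcodes were not determined, and the part of the glial and barcode values in the neuronal difference was not tested. In kept nuclei the median mitochondrial share of UMIs was 0.136, 0.0788 and 0.0529% in fed replicates 1 to 3. It was 0.317 and 0.237% in fasted replicates 1 and 2, and its part in the Sst difference was not tested.

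The libraries numbered 1 were prepared in one batch and those numbered 2 in another. Within batch 1 the fasted-to-fed ratio of Sst in inhibitory nuclei was 2.36 and within batch 2 it was 1.34, and in ungated nuclei it was 3.31 and 1.04. With the batch as a replicate block, Sst passed in all inhibitory nuclei (0.71 ± 0.14, adjusted p = 0.00313, 2.33% of all genes) and in ungated nuclei (0.64 ± 0.14, adjusted p = 0.000449, 3.01% of all genes), and did not pass in glia (1.28 ± 0.42, adjusted p = 0.126) and in the Prkcd class (1.60 ± 0.51, adjusted p = 0.105). That fit rests on 2 pairs of libraries, since fed replicate 3, which has no fasted partner, takes a term of its own. Its SE and p-values thus lean on the spread shared over all genes. They do not measure the spread between the 2 pairs, whose ratios in ungated nuclei were 3.31 and 1.04. Among the ungated nuclei, 1 nucleus held 84 of the 256 Sst UMIs of fed replicate 2, and 1 held 56 of the 253 of fasted replicate 1. The part of these nuclei in the ratios was not tested.

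**Figure D5:**
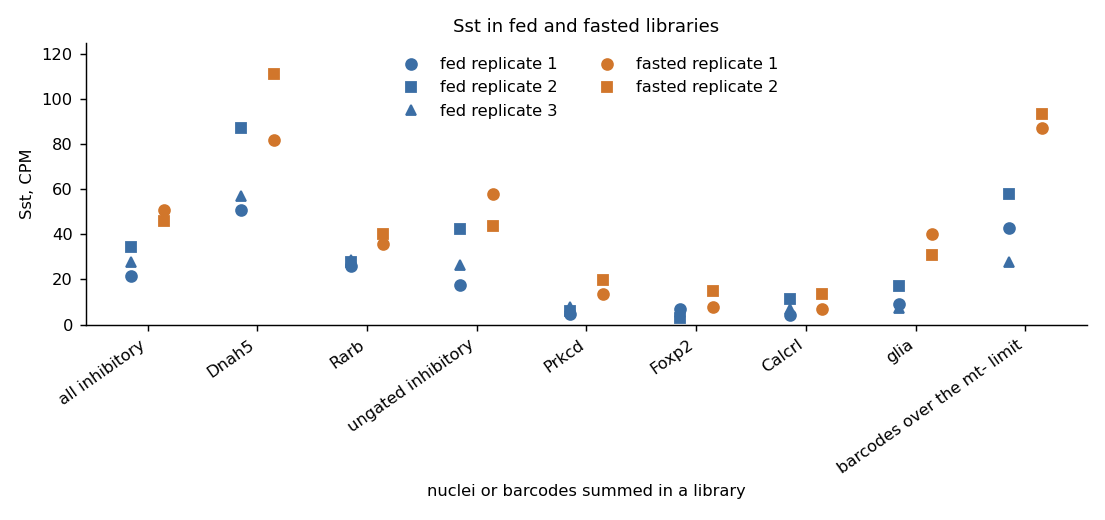
Sst level (CPM, vertical axis) in fed (blue) and fasted (orange) libraries, 1 point per library, for classes of nuclei and for barcodes over the mitochondrial limit (horizontal axis). The fasted points lie above the fed points in all inhibitory nuclei, glia, the mitochondria-rich barcodes and the ungated, Rarb, Prkcd and Foxp2 classes. The Foxp2 point of fasted replicate 1 is from 1 UMI. In the Rarb class 1 nucleus held 69 of the 178 UMIs of fasted replicate 2, and 1 held 76 of the 133 of fed replicate 3. The part of single nuclei in the order of the points was not tested. Fasted and fed points overlap in the Dnah5 and Calcrl classes. How many other genes have the fasted points above all fed points was not counted.

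Of the other members, Cort, Sstr1, Sstr2 and Sstr3 were tested in all inhibitory nuclei. Their log2 differences were -0.09 ± 0.46, 0.11 ± 0.44, -0.26 ± 0.28 and 0.04 ± 0.34, each with an adjusted p of 1.00 and none with an unadjusted p under 0.05, whereas Sstr4 was under the filter. In that fit 0% of all genes passed, so none of the pathway genes could be among them. With the replicate block, where 2.33% passed, the processing genes Pcsk2 (0.38 ± 0.10, edgeR adjusted p = 0.0432) and Pcsk1n, a convertase inhibitor (0.66 ± 0.10, adjusted p = 7.90e-05), rose in fasted libraries, 2 of 12 of their list. Of the 11 peptide genes Tac2 rose (0.60 ± 0.16, adjusted p = 0.0367). None of the 5 Gi/o subunits, 4 inward rectifiers, 2 calcium channels, 8 arrestin, kinase and phosphatase genes, 7 adenylyl cyclases and 12 interneuron genes passed in it.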

How the data were processed

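Nuclei were counted by the authors with Cell Ranger (5.0.0 in the matrix headers, while the submitters' processing notes list 2.1.1 and mm10), with introns included, and the deposited values are raw UMI counts per gene and barcode. Replicates are separate libraries of pooled tissue. Per class and library, UMIs were summed and tested with edgeR 4.0.16 (quasi-likelihood, TMM, filterByExpr, Benjamini-Hochberg adjustment over all genes tested, threshold 0.05) in R 4.3.3, with DESeq2 1.42.0 and the likelihood ratio test among the alternatives. A class entered with 5 nuclei in a library, or 10 in every library for fasting. Gates were at least 3 UMIs of Prkcd, 2 of Calcrl, Dnah5, Tac1 or Vdr, 6 of Foxp2 or Rarb and 1 of Nkx2-1, and the largest ratio to its threshold decided. Scrublet marked 72 nuclei (1.01%) as doublets, which were removed only as an alternative. Depth was 9763452 to 29703855 UMIs in kept nuclei of a library. Scripts were tested on simulated data.

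Named genes were the 6 members, the 5 genes most correlated with Sst or a receptor over classes (at 10 CPM or more in 1 class), the 10 each way with the largest fold between Sst-positive and Sst-negative nuclei (past the threshold, 20 CPM or more, same direction in 5 libraries), pathway genes that passed and gate or marker genes. Members and lists were chosen with earlier results of these data known. Libraries numbered 1, and those numbered 2, shared a preparation batch by a supplementary figure legend of the study. Their deviations from the mean of replicates 1 and 2 of their feeding state correlated across genes (r = 0.458 in inhibitory nuclei, 0.251 in the Dnah5 class, 0.352 in glia). The libraries numbered 1 were also shallower (median 8326 UMIs fed and 6608 fasted, against 14886 and 16367). The part of depth in r was not tested. That fed replicate 3 is the library of a batch of its own follows by elimination. The result of 1 gene of the interneuron list is not reported here.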

Additional observations from a re-analysis of the deposited data

How the results depend on the processing

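No Sst call between classes and no Sst difference between fed and fasted libraries changed sign under the alternatives tried. Sstr2 in Sst-positive nuclei did, and passed in none. With the replicate block, the fasting difference of Cort in all inhibitory nuclei went from -0.09 to 0.10. That of Sstr3 went from 0.04 to -0.02, and neither gene passed in either fit. The signs of the other receptor results were not followed over all alternatives. Without the filter on low counts, the 6 genes passed in 17 class comparisons in place of 9, where 4.14 to 43.9% of all genes passed by class. In that setting Sst passed between fed and fasted libraries in 3 classes in place of 0. They were all inhibitory, ungated and glia (edgeR adjusted p = 0.0340, 0.00573 and 0.0294, with 0.791, 1.09 and 1.2% of all genes). The likelihood ratio test gave 2 (all inhibitory and glia, adjusted p = 0.0347 and 0.0470), the replicate block gave 2, and DESeq2 gave none (adjusted p = 0.0724 in all inhibitory nuclei). DESeq2 returned no adjusted p for Sst in glia and in the Prkcd class (unadjusted p = 0.0101 and 0.0343), so it could not call them. Between Sst-positive and Sst-negative nuclei, 550 genes became 360 with DESeq2 and 1292 in unthinned nuclei with 2 or more Sst UMIs against 0, which also made 629 of 240 in ungated nuclei. Leaving out 1 library gave 141 (without fed replicate 2) to 291 genes in ungated nuclei, with 148 without fed replicate 3. The Rarb call of Sst was lost in 9 of 14 alternatives (highest adjusted p = 0.383), the ungated call in 5 of 14 (0.415) and the Calcrl call in 2 of 14. The share of inhibitory nuclei with a Sst UMI was 18.8% unthinned and 9.46% thinned. The cause of these changes was not tested. Counts of 44 to 283 UMIs limit the receptors.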
